A study of Bos taurus with 56 samples.

Results

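The regions described here are the accessible-chromatin peaks near the distal ends of cattle (Bos taurus) autosomes, taken from ATAC-seq of oocytes and early embryos. A peak was a member when it lay on chromosomes 1 to 29 and its centre fell in the last 3 Mb of its chromosome. The end of each chromosome was taken as the last peak position in any of the 11 lists of the series. Of 673059 peaks in all lists together, 37050 were members, 621723 lay on the rest of the autosomes, and the others lay on X. The distal windows spanned 87 Mb, or 3.46% of the 2512 Mb of autosome, so a list with an even density would hold about that share of its autosomal peaks there. The ends were set by a day 14 peak on 16 autosomes, a 16-cell peak on 5, a morula peak on 4, an 8-cell peak on 3 and an in vivo blastocyst peak on 1.

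In ATAC-seq a transposase cuts DNA that is not covered by closed chromatin, and sequenced fragments pile up over such places as peaks. Cattle autosomes are acrocentric: the centromere lies at one end, and the other, distal end carries the long arm's telomere. Distal ends of mammalian chromosomes are known for a high content of G and C bases, many genes, frequent recombination and repeats that are hard to assemble. The germinal vesicle (GV) oocyte is immature and arrested in meiotic prophase, the metaphase II (MII) oocyte is mature, and the bovine embryonic genome becomes broadly transcribed at about the 8-cell to 16-cell stage.

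The labels named GV oocytes (6 libraries), MII oocytes (5), 2-cell (6), 4-cell (6), 8-cell (5) and 16-cell embryos (5), morulae derived in vivo (4), morulae (6), blastocysts derived in vivo (4), blastocysts (3) and day 14 elongating embryos (6). Each library came from pooled oocytes or embryos, and the labels do not say how the groups without the in vivo wording were produced. The authors merged the libraries of a group into 1 list, so no spread between libraries and no test between stages could be computed. The spread given below is that between the 29 autosomes of a list, and the 95% intervals cover counting error of peaks only. Sequencing depth was unknown, and the lists differed in length from 677 autosomal peaks in MII oocytes to 368694 at day 14.

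The distal ends held a surplus of peaks in oocytes and in 2-cell and 4-cell embryos, densities near or below those of the rest from the 8-cell stage to the blastocyst, and a surplus again at day 14. Members numbered 420 in GV oocytes, 49 in MII oocytes, 204 in 2-cell and 402 in 4-cell embryos. They numbered 1724 in 8-cell embryos, 2364 in 16-cell embryos, 1301 in in vivo morulae, 3156 in morulae, 46 in in vivo blastocysts, 87 in blastocysts and 27297 in day 14 embryos. As shares of autosomal peaks these were 10.3% in GV, 7.24% in MII, 8.10% in 2-cell and 7.25% in 4-cell lists, against the even share of 3.46%. The share was 3.01% at the 8-cell stage, 3.21% at the 16-cell stage, 2.33% in in vivo morulae, 3.71% in morulae, 1.96% in in vivo blastocysts, 2.87% in blastocysts and 7.40% at day 14.

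In GV oocytes the distal windows held 4.83 peaks per Mb, against 1.51 in the rest of the autosomes, a ratio of 3.19 (interval 2.88 to 3.53). The ratio was 2.17 (1.59 to 2.91) in MII oocytes, with 0.563 peaks per Mb distally and 0.259 in the rest. It was 2.46 (2.12 to 2.83) in 2-cell embryos, with 2.34 and 0.955 peaks per Mb in the distal windows and the rest, and 2.18 (1.96 to 2.41) in 4-cell embryos, with 4.62 and 2.12. All 4 of these intervals lay above 1. Without autosome 11, which held 7 of the 49 members, the MII ratio was 1.90.

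At the 8-cell stage the distal windows held 19.8 peaks per Mb, against 22.9 in the rest, a ratio of 0.865 (0.824 to 0.908). The ratio was 0.923 (0.886 to 0.962) at the 16-cell stage and 0.665 (0.629 to 0.703) in in vivo morulae, both with intervals below 1. In morulae it was 1.07 (1.04 to 1.11), with 36.3 peaks per Mb distally and 33.8 in the rest. Taking the same number of peaks from every list, the 677 widest, gave 0.503 at the 8-cell stage, 0.333 in in vivo morulae and 0.761 in morulae, the last on the other side of 1, and 1.20 in in vivo blastocysts. In vivo blastocysts had a ratio of 0.558 (0.407 to 0.747) and blastocysts one of 0.823 (0.657 to 1.02), whose interval includes 1. Day 14 embryos had 314 peaks per Mb in the distal windows and 141 in the rest, a ratio of 2.23 (2.20 to 2.26). Counting 10 kb bins that hold a peak rather than peaks gave 1.42 at day 14, where peaks were close together. A bin counts once however many peaks it holds. With 6617 distal bins and 129853 bins in the rest occupied, this ratio is limited from above and could not reach 2.23.

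**Figure D1:**
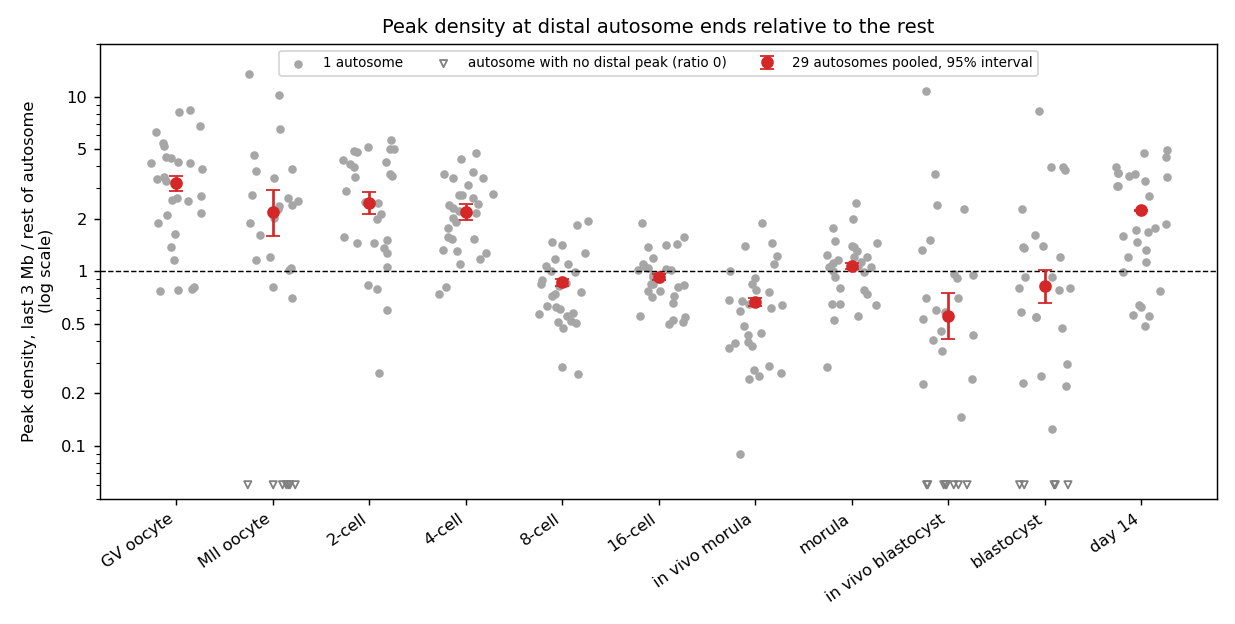
Ratio of peak density in the last 3 Mb to that in the rest of the autosomes (log scale) for each list. Red points pool 29 autosomes with their 95% counting interval, grey points are single autosomes, and open triangles are autosomes without a distal peak; the pooled ratio lies between 2.17 and 3.19 from GV to 4-cell, between 0.558 and 1.07 from 8-cell to blastocyst, and at 2.23 at day 14.

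The surplus was spread over most autosomes. In GV oocytes the distal window was denser than the rest of its chromosome on 25 of 29 autosomes, when 37% of all 3 Mb windows of that list were denser than the rest of their chromosome. The number was 20 in MII oocytes (44.7% of all windows), 25 in 2-cell embryos (35.8%), 27 in 4-cell embryos (37.3%) and 22 at day 14 (37.6%). It was 9 at the 8-cell stage (44.6%), 12 at the 16-cell stage (45.2%), 6 in in vivo morulae (45.2%) and 18 in morulae (48%). In blastocysts it was 6 in vivo (32.1%) and 10 without that label (27.6%), with no member at all on 8 and 5 autosomes. The median ratio over autosomes was 3.27 in GV oocytes (quartiles 1.88 and 4.48), 0.765 at the 8-cell stage (0.573 and 1.08), 0.614 in in vivo morulae (0.372 and 0.845), 1.07 in morulae (0.783 and 1.30) and 1.76 at day 14 (1.13 and 3.52).

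A density at least 2 times that of the rest of the chromosome was found on 21 autosomes in GV oocytes, against 15.5% of all windows. It was found on 17 in 2-cell embryos (11.2%), 17 in 4-cell embryos (9.45%) and 13 at day 14 (11.6%). No autosome reached it in the 8-cell list (1.94% of all windows), the 16-cell list (1.45%) or the in vivo morula list (4.36%), and 1 did in morulae (1.58%). In MII oocytes 14 autosomes reached it (17.5%), in in vivo blastocysts 4 (13.5%) and in blastocysts 5 (11.9%). When all 3 Mb windows of an autosome were ranked by peak number, the distal window was the fullest on 11 autosomes in GV oocytes, 10 in 2-cell embryos, 8 in 4-cell embryos and 10 at day 14. It was the fullest on 3 in MII oocytes, 1 at the 8-cell stage, 1 at the 16-cell stage, 2 in morulae, 1 in in vivo blastocysts, and none in in vivo morulae or blastocysts. At most 1 window per autosome, or 3.52% of the 825 windows, can be the fullest. The median percentile of the distal window on its autosome was 96.3 in GV oocytes, 93.8 in 4-cell embryos, 25.9 at the 8-cell stage, 20 in in vivo morulae and 87.5 at day 14.

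Peak numbers changed unequally between stages at the ends and elsewhere. The 8-cell list held 4.29 times as many members as the 4-cell list, 1724 against 402, while the rest of the autosomes held 10.8 times as many peaks, 55534 against 5142. On 28 of 29 autosomes the distal ratio was lower in 8-cell than in 4-cell embryos. Among 8-cell peaks, 2.90% were distal where no earlier list had the peak, and 5.19% where at least 1 earlier list had it. The second share is not independent of the surplus in the earlier lists, which were themselves 7.24% to 10.3% distal. The morula list held 1.34 times as many members as the 16-cell list and 1.15 times as many peaks in the rest. The day 14 list held 8.65 times as many members as the morula list and 4.17 times as many peaks in the rest, and its distal ratio was higher on 24 of 29 autosomes. Against the morulae without that label, in vivo morulae had 0.412 times as many members and 0.665 times as many peaks in the rest, with a lower distal ratio on 28 of 29 autosomes. All of these are differences between single lists of unknown depth.

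In GV, 2-cell and 4-cell lists and at day 14 the density was lower further from the end, though not steadily, with no step at the 3 Mb limit that all lists shared. In GV oocytes the density was 3.37 times the list mean in the last 1 Mb, 2.97 times at 1 to 2 Mb, 2.56 times at 2 to 3 Mb and 2.73 times at 3 to 4 Mb, just outside the windows. It was 1.42 times at 5 to 6 Mb but 2.63 times at 8 to 9 Mb, and still 1.56 times at 10 to 15 Mb from the end. In 2-cell embryos the surplus lay closer to the end, at 3.37, 2.34 and 1.31 times in the last 3 bins of 1 Mb and 1.03 times at 3 to 4 Mb. In 4-cell embryos these values were 2.19, 2.20, 1.89 and 1.55. At day 14 they were 2.52, 2.18, 1.71 and 1.67, with 1.80 at 8 to 9 Mb. In vivo morulae had 0.712, 0.728 and 0.579 times the list mean in the 3 distal bins and exceeded 1 only beyond 7 Mb, among the bins out to 20 Mb. Within 250 kb of the limit, 2-cell embryos had 8 peaks inside and 4 outside, and 4-cell embryos 25 and 18. GV oocytes had 28 inside and 34 outside, 8-cell embryos 130 and 160, 16-cell embryos 155 and 223, in vivo morulae 109 and 122, morulae 216 and 272, and day 14 embryos 1900 and 2052. The MII list had 4 and 3, the in vivo blastocyst list 1 and 2, and the blastocyst list 1 and 7.

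**Figure D2:**
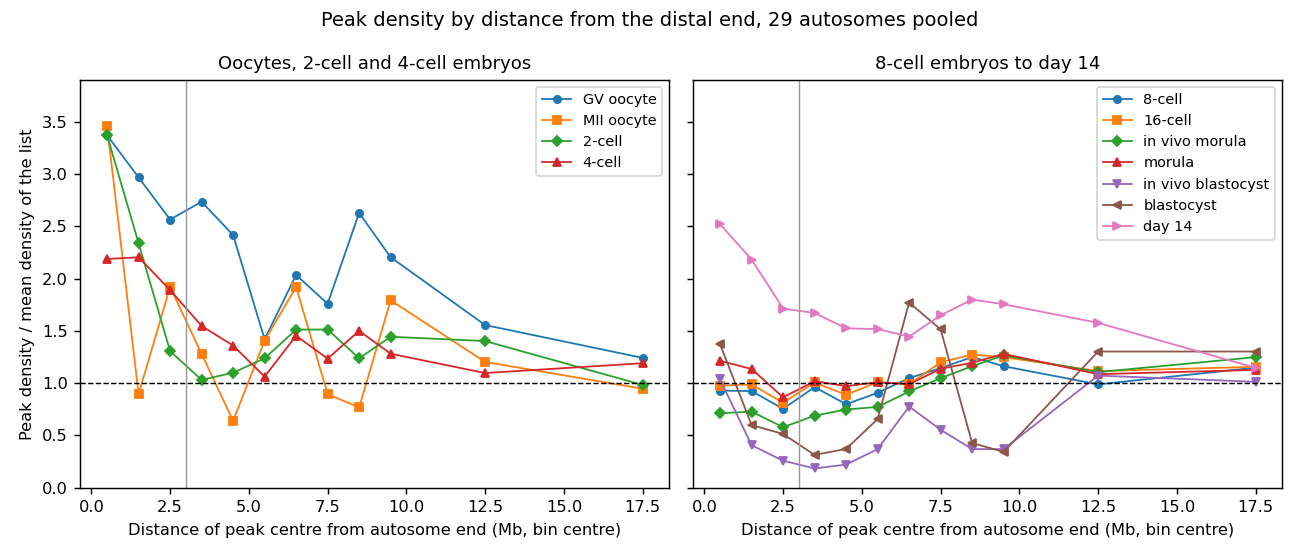
Peak density by distance of the peak centre from the end of the autosome, in Mb, divided by the mean autosomal density of the list, with 29 autosomes pooled. The vertical line marks 3 Mb; GV oocytes start at 3.37 times the mean and day 14 embryos at 2.52 times, whereas in vivo morulae start at 0.712 times.

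The last 100 kb was denser than the stretch from 100 to 500 kb in every list except day 14, most of all in 4 of the short lists. There the density was 11.5 times the list mean in MII oocytes (9 peaks), 8.94 times in 2-cell embryos (26), 7.39 times in in vivo blastocysts (20) and 9.71 times in blastocysts (34). Between 100 and 500 kb from the end it was 1.92 times the mean in MII oocytes, 3.01 times in 2-cell embryos, 0.462 times in in vivo blastocysts and 0.785 times in blastocysts. GV oocytes had 6.14 times the mean in the last 100 kb and 3.71 times at 100 to 500 kb, and 4-cell embryos 5.31 and 1.91 times. Lists with low distal densities were above their mean in the last 100 kb too, at 1.41 times in 8-cell and 1.67 times in 16-cell embryos, against 0.911 and 0.957 times at 100 to 500 kb. In vivo morulae had 1.01 and 0.695 times, and morulae 1.58 and 1.17 times. At day 14 the last 100 kb had 2.03 times the mean, below the 2.67 times at 100 to 500 kb. With windows of 1 Mb the ratio was 3.56 in MII oocytes, 1.04 in in vivo blastocysts and 1.38 in blastocysts, the last 2 above 1. Each autosome end was the last peak of any list, so by definition the outermost stretch holds a peak in at least 1 list. Among the MII, 2-cell and both blastocyst lists, only the in vivo blastocyst list set an end, on 1 autosome.

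Part of these outermost peaks belonged to regions that recurred in nearly every list. Overlapping peaks of all lists were joined into regions, and 24 of the 29854 distal regions were found in 8 or more lists (0.0804%), against 425 of 444195 in the rest (0.0957%; 0.0947% over all). More generally, 3380 distal regions (11.3%) were found in 2 or more lists, against 17.2% in the rest (16.8% over all), and 777 (2.60%) in 4 or more, against 4.69% (4.56% over all). Of the 24 recurring distal regions, 6 lay on chromosome 11 and 4 on chromosome 4. A peak in all 11 lists was found in 8 distal regions, and the 6 widest of these are given here. The widest was on chromosome 13 (UMD3.1), chr13:83063321-83067546, 1.17 Mb from the end, where peaks spanned 1262 bp in GV oocytes, 1875 bp in MII oocytes, 3580 bp in 2-cell and 3892 bp in 4-cell embryos, and 4061 bp in in vivo blastocysts. It held the widest distal peak of the MII, 2-cell, 4-cell and both blastocyst lists.

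The other 5 lay closer to the ends. On chromosome 11 they were chr11:107284288-107287110, chr11:107291105-107293502 and chr11:107303703-107305655, the last 4.47 kb from the end, and the first was the widest distal peak of GV oocytes (2745 bp). On chromosome 4 they were chr4:120643021-120644746 and chr4:120826548-120828007, the second reaching the last peak position of that chromosome, with widths between 1206 and 1460 bp in all 11 lists. A narrower region in all 11 lists, chr11:105122438-105123460, lay 2186 kb from the end. No gene or exon was assigned to these positions because the annotation at hand is of another assembly.

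Recurring regions made up 25 of the 46 members in in vivo blastocysts (54.3%) and 35 of the 87 in blastocysts (40.2%), against 19.7% and 19.3% of the peaks in the rest. Without them the distal ratio was 0.317 in in vivo blastocysts and 0.610 (0.454 to 0.802) in blastocysts, both further below 1. In GV oocytes they were a smaller part of the members than of the rest, at 22 of 420 (5.24%) against 287 of 3668 (7.82%), and the ratio without them was 3.28. Whether reads from repeated sequence elsewhere in the genome contribute to such regions was not tested.

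Peak widths at the ends were close to those elsewhere in most lists. Median width was 370.5 bp in members and 367 bp in the rest in GV oocytes, and 365.5 and 376 bp in 4-cell embryos. In 8-cell embryos members were narrower, at 425 bp (interval 412 to 440) against 459 bp, and so in 16-cell embryos, at 385 bp (373 to 396) against 411 bp, and in morulae, at 501 bp (484 to 518) against 526 bp. Day 14 members were wider, at 234 bp (231 to 237) against 215 bp, and covered 11.0% of the distal windows, against 4.67% of the rest. In in vivo blastocysts the 46 members had a median of 614 bp (472 to 767), against 379 bp, beside the high share of recurring regions. Within autosomes with at least 5 members, the median difference was 8 bp at day 14 (29 autosomes). Only 2 autosomes, chromosomes 4 and 11, had that many members in in vivo blastocysts and in MII oocytes, where it was 532 and 105 bp. In blastocysts the medians were 246 bp (199 to 313) and 226 bp.

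The widest members of the 5 longest lists lay on 5 different chromosomes. In 8-cell embryos the widest member was chr18:64565361-64568963 (3603 bp), and the peaks overlapping it spanned 1391 bp at the 16-cell stage and 185 bp at day 14. The fullest 100 kb of the distal 8-cell windows, with 18 peaks, was the stretch from 64500001 to 64600000 of chromosome 18 that holds it. The widest 16-cell member was chr28:44491787-44496376 (4590 bp), in a region found again in GV oocytes, at the 8-cell stage, in both morula groups and at day 14. Among in vivo morulae, the widest member, chr15:82362482-82366587 (4106 bp), lay 2.93 Mb from the end, just inside the limit. It lay in the fullest 100 kb of the distal windows of that list (25 peaks). The widest morula member, chr21:69805830-69812028 (6199 bp), measured 2373 bp in in vivo morulae, 771 bp at the 8-cell stage and 2891 bp at day 14. The widest day 14 member, chr22:60020261-60028088 (7828 bp), had peaks of 669 bp in in vivo morulae and 431 bp in morulae and in no other list.

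Single autosomes differed strongly, and how far their order was alike varied between pairs of lists. Across 29 autosomes, Spearman's rho of the distal ratio was 0.51 between 4-cell and 2-cell embryos, 0.34 between 8-cell and 4-cell embryos, 0.79 between 16-cell and 8-cell embryos and 0.70 between morulae and 16-cell embryos. It was 0.84 between in vivo morulae and morulae. For day 14 embryos it was 0.32 with morulae, −0.07 with 8-cell embryos and 0.65 with GV oocytes. These are descriptions over chromosomes that share their sequence and assembly in every list.

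Chromosome 17 had the highest ratio in 8-cell embryos, morulae and day 14 embryos. Its distal window held 136 peaks at the 8-cell stage (ratio 1.95), 122 at the 16-cell stage (1.57), 83 in in vivo morulae (1.46), 221 in morulae (2.48) and 1999 at day 14 (4.95). It held 1 peak in each blastocyst list and none in MII oocytes. Chromosome 12 followed in morulae (173 peaks, 1.995) and at day 14 (1096 peaks, 4.74), with the highest 16-cell ratio (114 peaks, 1.90). Chromosome 6 came next at day 14, with 1036 peaks and a ratio of 4.50, whereas its morula ratio was 0.75 with 80 peaks. Without chromosome 17 the pooled ratio was 1.03 in morulae and 2.14 at day 14.

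Chromosome 18 had ratios of 1.84 (185 peaks) at the 8-cell stage, 1.88 (139 peaks) in in vivo morulae and 1.76 (182 peaks) in morulae, but 0.64 (488 peaks) at day 14. Chromosome 26 went the other way: its distal window held 5 peaks in in vivo morulae (ratio 0.090, the lowest of that list), 22 in morulae (0.28), 19 at the 8-cell stage (0.28) and 808 at day 14 (1.85). In GV oocytes it held 16 peaks (2.52) and in 4-cell embryos 21 (3.44). Chromosome 19 had the lowest ratio at the 8-cell and 16-cell stages (0.26 with 22 peaks and 0.50 with 51) and in GV oocytes (0.77 with 6), and 0.77 at day 14. The lowest day 14 ratios were those of chromosomes 13 (289 peaks, 0.48), 27 (181 peaks, 0.56) and 7 (270 peaks, 0.56). Chromosome 27 was also among the lowest in GV oocytes (4 peaks, 0.79), in in vivo morulae (11 peaks, 0.25) and in morulae (46 peaks, 0.53).

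The GV surplus was largest on chromosomes 11 (24 peaks, 8.43), 9 (33 peaks, 8.13) and 4 (20 peaks, 6.77). On chromosome 9 the ratio was 4.37 in 4-cell embryos (23 peaks), 0.83 at the 8-cell stage (48 peaks), 0.59 in in vivo morulae (40 peaks), 1.45 in morulae (154 peaks) and 3.67 at day 14 (830 peaks). On chromosome 4 it was 4.75 in 4-cell embryos (22 peaks), 0.61 at the 8-cell stage (38 peaks) and 3.48 at day 14 (1049 peaks). Both ends thus had surpluses before the 8-cell stage and at day 14, and ratios below 1 at the 8-cell stage.

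**Figure D3:**
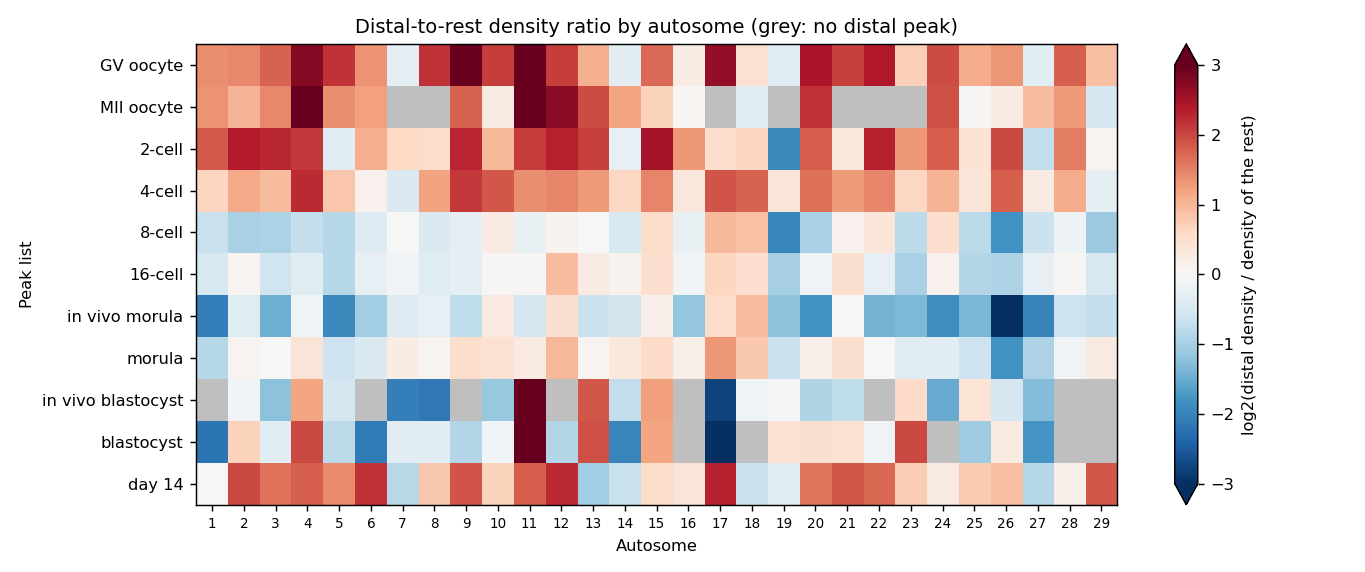
Distal-to-rest density ratio on a log2 scale for every list (rows) and autosome (columns), with grey cells where the distal window held no peak. Red cells, with a denser distal window, fill most of the GV, 2-cell, 4-cell and day 14 rows, and blue cells most of the 8-cell and in vivo morula rows, with chromosomes 17 and 18 among the exceptions.

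Members of the 4-cell list were found at the next stage less often than peaks elsewhere, and those of the 2-cell list less clearly so. Of the 2-cell members, 36 of 204 (17.6%, interval 12.7% to 23.6%) overlapped a 4-cell peak by at least 1 bp, against 25.6% in the rest (24.9% over all autosomal peaks). The difference was −7.91 points (interval −12.9 to −1.85). Without recurring regions these were 11 of 177 (6.21%) and 8.17%, a difference of −1.96 points. Recurring regions were picked by the number of lists that hold them, the compared lists included. Leaving them out therefore removed mostly shared peaks, and the smaller difference cannot tell how sharing at the ends differs. Of the 4-cell members, 81 of 402 (20.1%, 16.3% to 24.4%) overlapped an 8-cell peak, against 32.8% (31.9% over all), a difference of −12.6 percentage points (interval −16.5 to −8.26). With a required overlap of 50% of both peaks, the difference was −3.85 points, and without recurring regions it was −11.8. GV members showed the same direction, with 72 of 420 (17.1%) in the 8-cell list, against 29.6% of the rest (28.3% over all). The density of 8-cell peaks at the ends was itself 0.865 times that of the rest. For MII members the counts were too small to tell, with 11 of 49 (22.4%, 11.8% to 36.6%) in the GV list against 18.2% (18.5% over all), and 10 of 49 (20.4%) in the 2-cell list against 23.1% (22.9% over all).

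From the 8-cell stage to the morula, differences in sharing between the ends and the rest were small and ran in both directions. Of the 8-cell members, 755 of 1724 (43.8%, 41.4% to 46.2%) had a 16-cell peak, against 45.1% in the rest (45.1% over all). Of the 16-cell members, 1140 of 2364 (48.2%, 46.2% to 50.3%) had a morula peak, against 46.8% (46.8% over all). The intervals of both differences include 0. In the morula list, 740 of the 8-cell members (42.9%) had a peak, against 39.5% (39.6% over all), 3.44 points more (1.09 to 5.83). In the in vivo morula list the shares were lower at the ends. They were 24.2% (417 of 1724) against 27.7% for 8-cell peaks (27.6% over all), −3.48 points (−5.48 to −1.37), and 26.1% (617 of 2364) against 31.8% for 16-cell peaks (31.6% over all), −5.66 points (−7.43 to −3.82). With the rest weighted to the widths of the members, the difference for 16-cell peaks in the morula list was 4.26 points rather than 1.45.

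In the shorter in vivo and blastocyst lists, members were shared more often than other peaks. Of the in vivo morula members, 931 of 1301 (71.6%, 69.0% to 74.0%) were shared with the morulae without that label, against 60.2% (60.5% over all), a difference of 11.3 points (8.78 to 13.7). With 50% of both peaks shared the difference was 3.56 points. In the other direction the sign was opposite: 899 of the 3156 morula members (28.5%) had an in vivo morula peak, against 39.4% in the rest (39% over all), −10.9 points (−12.5 to −9.23), where the in vivo list held fewer peaks at the ends. Of the in vivo blastocyst members, 34 of 46 (73.9%, 58.9% to 85.7%) were shared with the blastocysts without that label, against 32.0% (32.8% over all), and 11 of 21 (52.4%) against 17.1% without recurring regions. The difference was 42.0 points, and 22.2 points with the rest weighted to the members' widths. Of the blastocyst members, 52 of 87 (59.8%, 48.7% to 70.1%) had a morula peak, against 28.3% (29.2% over all). Without recurring regions this was 19 of 52 (36.5%) against 13.8%, and with 50% of both peaks shared the difference was 9.46 points rather than 31.5.

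The day 14 list covered more of the distal windows than of the rest, and overlap with it was higher at the ends for most lists. It was found for 50.3% of 8-cell members (867 of 1724), against 36.9% of the rest (37.3% over all), and for 53.8% of 16-cell members (1272 of 2364), against 40.3% (40.7% over all). The shares were 70.7% (920 of 1301) against 49.5% in in vivo morulae (50% over all) and 63.8% (2012 of 3156) against 45.8% in morulae (46.5% over all). In blastocysts they were 95.7% (44 of 46) against 43.1% in vivo (44.1% over all), and 87.4% (76 of 87) against 56.0% without that label (56.9% over all). GV oocytes ran the other way: 197 of 420 members (46.9%, 42.0% to 51.8%) had a day 14 peak, against 53.5% of the rest (52.8% over all), although day 14 peaks covered 2.37 times as much of the distal windows. In 2-cell embryos (118 of 204, 57.8% against 53.8%, with 54.1% over all) and 4-cell embryos (218 of 402, 54.2% against 50.1%, with 50.4% over all), and in MII oocytes (23 of 49, 46.9% against 39.8%, with 40.3% over all), the intervals of the differences include 0.

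**Figure D4:**
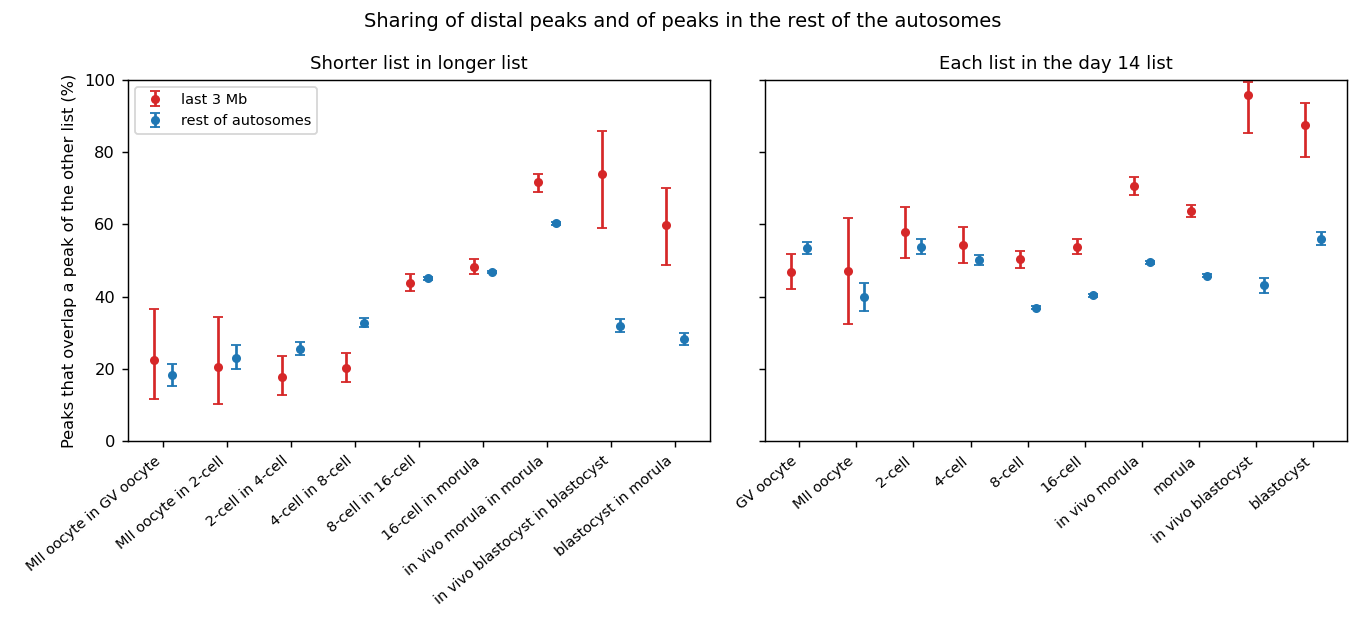
Percentage of peaks in the last 3 Mb (red) and in the rest of the autosomes (blue) that overlap a peak of a longer list by at least 1 bp, with 95% exact intervals. The left panel shows pairs of stages or of in vivo and other lists, the right panel each list in the day 14 list; red lies below blue for 4-cell in 8-cell (20.1% against 32.8%) and above it for both blastocyst lists.

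The lists that hold a region also differed in how often it was distal. Of all regions, 6.30% were distal, against 3.46% of autosome length. Regions of day 14 embryos alone, 301640 of 474049, weigh most in that share. Of the regions found in GV oocytes alone, 198 of 1602 were distal (12.4%, 10.8% to 14.1%), and of those found in GV oocytes and day 14 embryos alone, 80 of 664 (12.0%, 9.67% to 14.8%). Regions shared by 2-cell and day 14 embryos alone were distal in 14.3% of cases (47 of 328), and those shared by 4-cell and day 14 embryos alone in 13.2% (97 of 737). Regions of day 14 embryos alone were distal in 7.92% (23897 of 301640), and these made up 80.0% of all distal regions. By contrast, 2.58% of regions of the 8-cell list alone (547 of 21184), 2.84% of those of the 16-cell list alone (655 of 23050) and 1.17% of those of in vivo morulae alone (175 of 14990) were distal. Regions of morulae alone were distal in 2.79% (726 of 26058), and those shared by morulae and day 14 embryos alone in 8.33% (771 of 9254). Day 14 peaks covered 11.0% of the distal windows, against 4.67% of the rest. For the 2-cell, 4-cell, 8-cell, 16-cell and both morula lists, regions shared with day 14 alone were distal more often than regions of the list alone. GV oocytes did not show this, at 12.0% with day 14 and 12.4% alone. Whether the wider day 14 coverage at the ends accounts for these shares was not tested. Of the regions of in vivo blastocysts alone, 2 of 1142 were distal (0.175%, 0.0212% to 0.631%), and of those of blastocysts alone, 9 of 1147 (0.785%, 0.359% to 1.48%). Regions common to 8-cell and 16-cell embryos and both morula groups, and absent from every other list but day 14, were distal in 1.38% of cases without a day 14 peak (27 of 1951) and in 2.84% with one (236 of 8304).

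**Figure D5:**
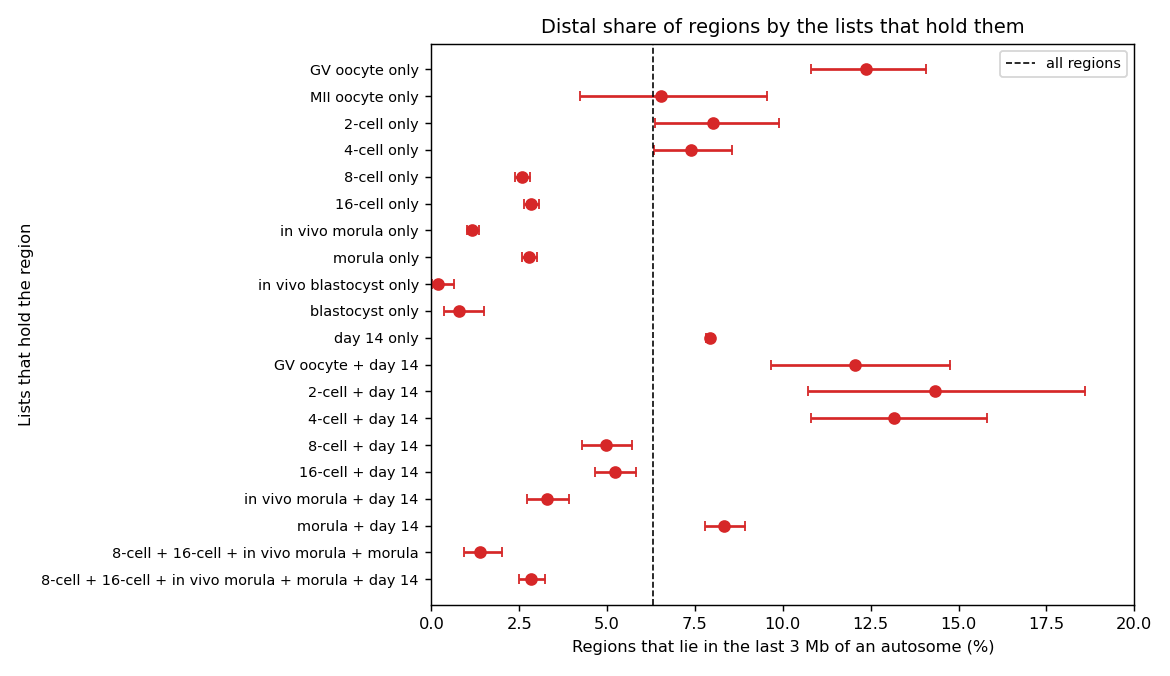
Percentage of joined regions that lie in the last 3 Mb of an autosome, by the exact set of lists that hold the region, with 95% exact intervals. The dashed line is the 6.30% of all regions, most of which are of day 14 alone. Regions of GV oocytes alone (12.4%) and those shared with day 14 by GV, 2-cell or 4-cell lists lie to its right. Those of the in vivo morula list alone (1.17%) and of both blastocyst lists alone lie far to its left.

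The first 3 Mb of the autosomes, at the centromeric start, also held a surplus from GV oocytes to 4-cell embryos. The order of stages was another. Its density ratio was 1.33 (1.14 to 1.54) in GV oocytes and 2.46 (1.84 to 3.25) in MII oocytes. It was 2.77 (2.41 to 3.18) in 2-cell and 1.61 (1.43 to 1.81) in 4-cell embryos. In morulae it was 0.810 (0.778 to 0.844), in in vivo blastocysts 1.45 (1.19 to 1.75) and in blastocysts 2.71 (2.38 to 3.08). At day 14 it was 1.01 (0.994 to 1.03). At both ends the ratio was below 1 at the 8-cell and 16-cell stages and in in vivo morulae, at 0.931, 0.797 and 0.638 in the first 3 Mb.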

How the data were processed

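ATAC-seq peaks were deposited as 1 list per group with 3 columns (chromosome, start, end), merged by the authors over the libraries of a stage per the labels, with no score or read count. The submitters' processing notes name HOMER, bedtools, MACS2 and Bowtie2 2.3, and the genome build UMD3.1. How peaks were thresholded, shifted for the transposase cut and merged, each of which affects peak number and width, is not given in the sources used here. Starts were read as counted from 0 and printed from 1.

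Densities were peaks per Mb, and a ratio's interval was the 95% exact Clopper-Pearson interval of the member share turned into a ratio. Intervals of differences between shares used Newcombe's method. They treat neighbouring peaks as independent. With 1 list per group no test was made. Named regions were the widest member of each list and the 6 member regions found in most lists, with ties broken by width. The fullest 100 kb of the distal windows of a list, and the 3 highest and lowest autosomes of the 5 longest lists, were named too. The fullest 100 kb is given for only some lists. Autosomes of GV oocytes, and other autosomes followed across lists, were chosen after their values were seen. Members and comparisons were chosen with earlier results of these data known. The counting was tested on 11 simulated lists, and all planted members and overlaps were found. Overlap counts of 10 pairs equalled those of bedtools 2.31.1. Alternatives were windows of 1 and 5 Mb, peaks of at least 327 bp (the median), expected numbers per autosome, leaving out the fullest autosome, 50% overlap, weighting by 5 width classes, and medians within autosomes. Added after seeing the data were the 677 widest peaks per list, occupied 10 kb bins, and leaving out regions found in 8 or more lists. For sharing, leaving out those regions selects on the compared lists themselves and lowers the shares at the ends and in the rest. Computation used scipy 1.17.1, pandas 2.3.3 and numpy 2.4.6 in Python 3.11.15, with matplotlib 3.10.9 for plots. No sequence or gene is given because no genome of this build was used here.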

Additional observations from a re-analysis of the deposited data

Results flagged for a closer look

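Between successive stages without the in vivo label, or between lists with and without it, 3 comparisons had distal-to-rest ratios on opposite sides of 1. Pairs outside this set, such as day 14 and 8-cell embryos, did so too. In all 3 comparisons both counting intervals were clear of 1. These intervals treat neighbouring peaks as independent and leave out the spread between autosomes. The differences were not tested because each group had 1 list. The 8-cell ratio (0.865) was 0.397 times the 4-cell ratio (2.18). The morula ratio (1.07) was 1.16 times the 16-cell ratio (0.923). It was higher than the 16-cell ratio on 22 of 29 autosomes and lower on 7. The distal window was denser than the rest on 18 autosomes in morulae and on 12 at the 16-cell stage. Without chromosome 17 the pooled morula ratio was 1.03. With only the widest peaks, in equal number from every list, it was 0.761, below 1 like the 16-cell ratio of 0.632. The in vivo morula ratio (0.665) was 0.620 times the ratio of morulae without that label (1.07). With those widest peaks both of these ratios lay below 1, at 0.333 and 0.761.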

How the results depend on the processing

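Lists merged by the authors allowed no leaving out of single libraries. No paired analysis was possible because the lists carry no library numbers. Of 88 alternative density ratios, 54 stayed within the counting interval and 3 crossed 1 from a ratio whose interval excluded it. With windows of 1 Mb the ratio was 3.56 in MII oocytes, 3.46 in 2-cell embryos, 0.928 in 8-cell and 0.976 in 16-cell embryos, 0.710 in in vivo morulae, 1.22 in morulae, 1.04 in in vivo blastocysts (across 1), 1.38 in blastocysts and 2.56 at day 14. With 5 Mb it was 1.93 in 2-cell and 1.94 in 4-cell embryos, 0.407 in in vivo blastocysts, 0.620 in blastocysts and 2.04 at day 14. With the 677 widest peaks it was 2.66 in GV oocytes, 1.80 in 2-cell, 0.503 in 8-cell and 0.632 in 16-cell embryos, 0.333 in in vivo morulae, 0.761 in morulae (across 1), 1.20 in in vivo blastocysts (across 1), 1.11 in blastocysts and 2.76 at day 14. Peaks of at least 327 bp gave 0.858 at the 16-cell stage and 2.56 at day 14. Expected numbers per autosome gave 2.09 at day 14. Without the fullest autosome the ratio was 0.810 in 8-cell embryos, 0.617 in in vivo morulae, 1.03 in morulae and 2.14 at day 14. Occupied bins, each counted once however many peaks it holds, gave 0.968 at the 16-cell stage and 1.42 at day 14. Without recurring regions it was 0.317 in in vivo blastocysts and 0.610 in blastocysts.

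Of 40 sharing differences, 35 stayed within the interval. With 50% of both peaks shared, the difference was −3.85 points for 4-cell in 8-cell, 9.46 for blastocyst in morula and 3.56 for in vivo morula in morula. With width weighting it was 4.26 points for 16-cell in morula and 22.2 for in vivo in other blastocysts. Of 22 width differences, 19 stayed, and within autosomes with 5 or more members they were 8 bp at day 14 and, on chromosomes 4 and 11 alone, 105 bp in MII oocytes and 532 bp in in vivo blastocysts. The causes were not tested. Unknown depth limits comparisons of peak number between stages, and the windows end at the last peak found rather than at the assembled end.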
